A study of Mus musculus with 6 samples.

Results

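The DNA replication and S-phase genes form a set of 46 mouse genes that encode the proteins which license origins, unwind and copy DNA, supply its building blocks, package the new strands and control entry into S phase. They were picked by symbol from a list of names drawn up with earlier results of these data known. All 46 were found among the 15648 genes of the authors' deposited table. Given how the list was made, that does not show whether other replication genes were lost to a filter on low values. The table compares bulk RNA from the intermolar eminence, the raised back part of the tongue, in E17.5 mouse embryos. Of the 6 C57BL/6 libraries, 3 were WT and 3 were labelled Fst-KO, a mutant of the follistatin gene. No further allele or agent is given in the labels, the kind of Fst allele was not given in the sources used here, nor was it stated whether libraries came from separate or pooled embryos, so p-values may measure only technical spread. The deposited values are 1 mean per group, a ratio, a p-value and a false discovery rate (FDR) per gene. Without values per library, there is no standard deviation and no depth to give, and whether the groups overlapped cannot be seen. The normalised scale is not given and may or may not correct for gene length, so levels are compared between groups for the same gene and not between genes.

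Replication begins when the origin recognition complex, with the loaders Cdc6 and Cdt1, places the Mcm2 to Mcm7 helicase on DNA in G1, a step called licensing. The kinase Cdc7 and cyclin E-driven kinase activity then bring in Cdc45 and the GINS complex, primase and the polymerases start copying, and the sliding clamp PCNA holds them on the template. Most of these genes are transcribed under E2F factors as cells pass from G1 into S phase, so in a tissue sample their transcripts come largely from dividing cells. In the embryonic tongue those include basal epithelial, mesenchymal and myoblast progenitors, while muscle fibres have left the cycle.

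Before the members, the labels were checked. Fst, the targeted gene, averaged 33.2 in WT and 69.7 in the libraries labelled Fst-KO in the authors' deposited table (ratio 2.10, p = 4.31e-06, FDR 0.0158). Because the targeted gene was higher, not lower, in the libraries carrying the knockout label, every direction here is that of the labels. Ratios were shifted upward across the whole table, with a median over all genes of 1.14 and quartiles of 1.04 and 1.24, so ratios are also given relative to that median. The labels call the tissue tongue epithelium, and all 10 surface epithelium markers were listed, but so were all 10 skeletal muscle and all 10 mesenchyme markers.

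Nearly the whole replication set stood higher in the libraries labelled Fst-KO. Of the 46 members, 45 had a ratio above 1, against 81.0% of all genes, and 44 exceeded the all-gene median, which by definition divides all genes evenly. The median ratio of the members was 1.35 (0.43 on the log2 scale), with quartiles of 1.27 and 1.42, and it was 1.18 relative to the all-gene median. Genes whose means fell in the same range as the members' had a median of 1.14. The deposited p was under 0.05 in the higher direction for 33 members, against 13.4% of all genes, and in the lower direction for 0, against 2.17% of all genes. A p under 0.01 was reached by 6 members, all higher, against 2.70% of all genes.

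None of these differences passed the authors' own correction. The authors' FDR was under 0.05 for 0 members, against 0.0959% of all genes, and under 0.25 for 0, against 1.58%, and the members' FDR ran from 0.279 to 0.502. Each p tests a ratio against 1 and not against the shift of all genes, and the members' p-values come from the same 6 libraries, so 33 low values are not 33 separate pieces of evidence. The ratios of single members are therefore given as measured, as higher or lower means and not as established changes. More dividing cells and more of these transcripts per cell cannot be told apart in a bulk sample.

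**Figure D1:**
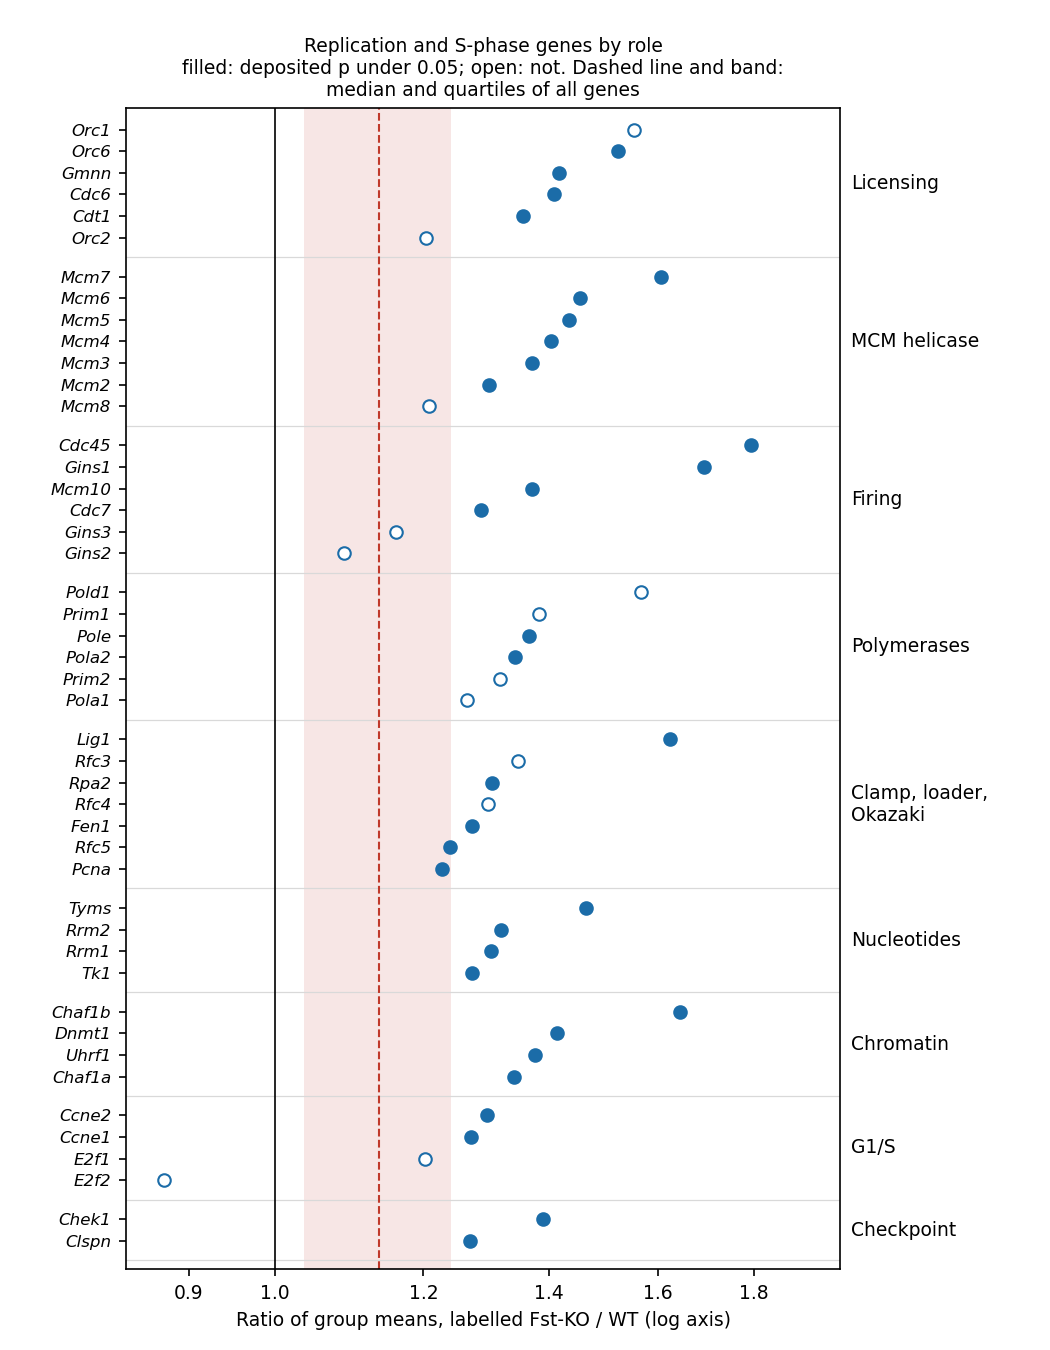
Ratio of the group mean in the libraries labelled Fst-KO to that in WT (log axis) for each of the 46 genes, grouped by role; filled points have a deposited p under 0.05, the dashed line is the all-gene median (1.14) and the band its quartiles. All points but E2f2 lie to the right of 1, and only E2f2 and Gins2 lie left of the dashed line.

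The licensing genes had a median ratio of 1.41 over 6 genes, of which 4 were higher at a p under 0.05, a count to be read, as in each role group, against 13.4% of all genes. Orc1, the regulated ATPase subunit of the origin recognition complex, stood at 1.501 in WT against 2.33, per the authors' deposited table (ratio 1.55, p = 0.145). Its high ratio rests on low means and has no p under 0.05. For Orc2, a core subunit of the same complex, the authors' deposited table gives 15.7 in WT and 18.8 with the Fst-KO label (ratio 1.204, p = 0.105). Orc6, its smallest subunit, averaged 8.13 in WT and 12.4 in libraries labelled Fst-KO in the authors' deposited table (ratio 1.52, p = 0.00847). Among the other subunits, which are not members, the authors' deposited table lists ratios of 1.33 for Orc3 (p = 0.177), 1.26 for Orc4 (p = 0.0432) and 1.15 for Orc5 (p = 0.312). All 6 ratios lay above the all-gene median, with Orc5 and Orc2 nearest to it, and differences between subunits were not tested.

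The 2 loaders and their inhibitor were all higher with a p under 0.05. Cdc6, the ATPase that joins the bound complex, stood at 5.36 in WT against 7.55, per the authors' deposited table (ratio 1.41, p = 0.0165). For Cdt1, which escorts the helicase to it, the authors' deposited table gives 12.1 in WT and 16.4 with the Fst-KO label (ratio 1.36, p = 0.00650). Gmnn (geminin), which binds Cdt1 and blocks repeated loading, averaged 3.31 in WT and 4.69 in libraries labelled Fst-KO in the authors' deposited table (ratio 1.42, p = 0.0354). A factor that promotes loading and the one that restrains it therefore stood within a similar range of ratios.

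All 6 subunits of the replicative helicase, Mcm2 to Mcm7, were higher with a p under 0.05, at a median ratio of 1.42. These proteins form 1 ring that encircles DNA. Mcm2 stood at 34.0 in WT against 44.2, per the authors' deposited table (ratio 1.30, p = 0.0138). For Mcm3, the authors' deposited table gives 26.8 in WT and 36.8 with the Fst-KO label (ratio 1.37, p = 0.0273). Mcm4 averaged 37.1 in WT and 52.0 in libraries labelled Fst-KO in the authors' deposited table (ratio 1.40, p = 0.0133). Their ratios thus lay between 1.30 and 1.40. Mcm5 stood at 20.6 in WT against 29.5, per the authors' deposited table (ratio 1.43, p = 0.0208). For Mcm6, the authors' deposited table gives 37.6 in WT and 54.7 with the Fst-KO label (ratio 1.45, p = 0.0177). Mcm7 averaged 19.6 in WT and 31.4 in libraries labelled Fst-KO in the authors' deposited table (ratio 1.61, p = 0.0207). Mcm7 had the highest ratio of the ring. Mcm8, a relative that acts in recombination repair and is no part of that ring, stood at 2.81 in WT against 3.40, per the authors' deposited table (ratio 1.21, p = 0.310). Its ratio lay nearer to the all-gene median, without a p under 0.05.

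**Figure D2:**
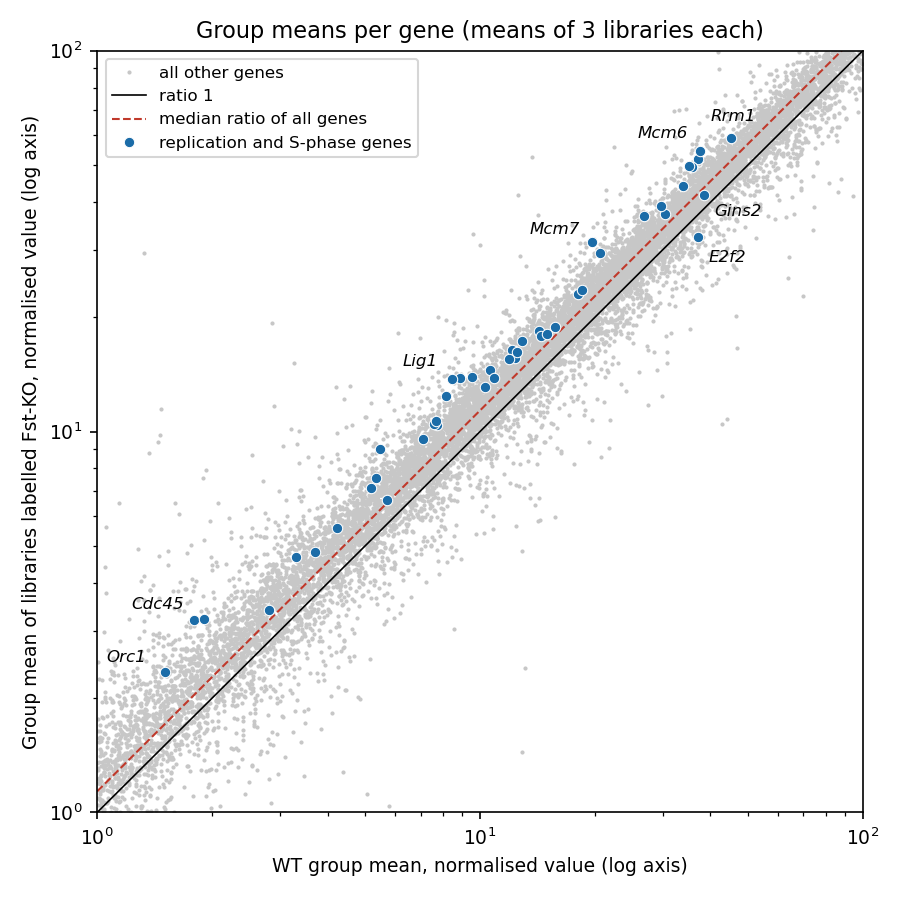
Group mean in the libraries labelled Fst-KO against that in WT for each gene (normalised values, both axes log; each mean is of 3 libraries and no error can be drawn), with the 46 replication genes in blue and other genes within the plotted range in grey. The blue points follow a band above the dashed median ratio of all genes over the whole span of means, with E2f2 under the line of equal means and Gins2 between both lines.

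Genes that turn the loaded helicase into a working one had the widest spread of ratios of the role groups, with a median of 1.33 over 6 genes and 4 with a p under 0.05. For Cdc45, the helicase cofactor, the authors' deposited table gives 1.79 in WT and 3.20 with the Fst-KO label (ratio 1.79, p = 0.0388). This was the highest ratio of all 46 members, again on low means. Gins1, a subunit of the GINS complex, averaged 1.90 in WT and 3.22 in libraries labelled Fst-KO in the authors' deposited table (ratio 1.69, p = 0.0140). Gins2, its partner subunit, stood at 38.4 in WT against 41.8, per the authors' deposited table (ratio 1.09, p = 0.235). For Gins3, another of its subunits, the authors' deposited table gives 5.71 in WT and 6.62 with the Fst-KO label (ratio 1.16, p = 0.162). Among these 3 subunits the ratio ran from near the shift of all genes to well above it, and differences between them were not tested. Exons of Gins2 share 67.3% of their bases with Gse1 on the opposite strand, whose own ratio was 0.862 in the authors' deposited table, and without strand information the reads of both cannot be told apart. Cdc7, the kinase that fires origins, averaged 14.3 in WT and 18.4 in libraries labelled Fst-KO in the authors' deposited table (ratio 1.29, p = 0.0139). Mcm10, which helps the helicase start, stood at 5.20 in WT against 7.12, per the authors' deposited table (ratio 1.37, p = 0.0200).

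The polymerase genes had a median ratio of 1.35 over 6 members, but only 2 reached a p under 0.05. For Pola2, the accessory subunit of polymerase alpha, the authors' deposited table gives 7.73 in WT and 10.4 with the Fst-KO label (ratio 1.34, p = 0.0243). Pole, the catalytic subunit of the leading-strand polymerase, averaged 10.6 in WT and 14.5 in libraries labelled Fst-KO in the authors' deposited table (ratio 1.37, p = 0.0315). Pold1, that of the lagging-strand polymerase, stood at 8.84 in WT against 13.8, per the authors' deposited table (ratio 1.57, p = 0.0530). Pold1 had the highest ratio of the group and just missed that p. For Prim1, the catalytic primase subunit, the authors' deposited table gives 7.57 in WT and 10.5 with the Fst-KO label (ratio 1.38, p = 0.0765). Prim2, the large primase subunit, averaged 4.22 in WT and 5.57 in libraries labelled Fst-KO in the authors' deposited table (ratio 1.32, p = 0.141). Pola1, the catalytic subunit of polymerase alpha, stood at 12.3 in WT against 15.6, per the authors' deposited table (ratio 1.27, p = 0.123). Both primase genes lay above the quartile range of all genes without such a p.

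Pola1 is the X-linked member, and transcripts that mark sex were unequal between the groups. For Xist, the RNA of the inactive X chromosome, the authors' deposited table gives 142 in WT and 735 with the Fst-KO label (ratio 5.19, p = 0.0126). The Y-linked genes Ddx3y, Eif2s3y, Kdm5d and Uty had lower means, and the authors' deposited table lists their ratios as 0.596, 0.642, 0.548 and 0.614, with p-values between 0.156 and 0.192. Without Pola1 the median ratio of the other 45 members was 1.35. The part of embryo sex in the other members was not tested.

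Genes for the clamp, its loader and the finishing of lagging-strand fragments had the second lowest median of the role groups, 1.30 over 7 genes, with 5 at a p under 0.05. Pcna, the sliding clamp, averaged 30.4 in WT and 37.3 in libraries labelled Fst-KO in the authors' deposited table (ratio 1.23, p = 0.0166). The clamp itself thus had the lowest ratio of this group. Rfc5, a small subunit of the clamp loader, stood at 14.4 in WT against 17.9, per the authors' deposited table (ratio 1.24, p = 0.0221). For Rfc3, another loader subunit, the authors' deposited table gives 7.09 in WT and 9.56 with the Fst-KO label (ratio 1.35, p = 0.0523). Rfc4, also of the loader, averaged 3.72 in WT and 4.83 in libraries labelled Fst-KO in the authors' deposited table (ratio 1.30, p = 0.169). These 3 loader subunits spanned ratios from 1.24 to 1.35. Rpa2, which coats single-stranded DNA, stood at 11.9 in WT against 15.5, per the authors' deposited table (ratio 1.31, p = 0.0421). For Fen1, the flap nuclease, the authors' deposited table gives 18.1 in WT and 23.0 with the Fst-KO label (ratio 1.27, p = 0.0256). Lig1, the ligase that seals the fragments, averaged 8.47 in WT and 13.8 in libraries labelled Fst-KO in the authors' deposited table (ratio 1.62, p = 0.0253). Lig1 had the highest ratio of this group.

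All 4 genes of deoxynucleotide supply were higher with a p under 0.05, with a median ratio of 1.31. Rrm1, the large subunit of ribonucleotide reductase, stood at 45.3 in WT against 59.1, per the authors' deposited table (ratio 1.30, p = 0.0359). For Rrm2, its S-phase small subunit, the authors' deposited table gives 29.6 in WT and 39.1 with the Fst-KO label (ratio 1.32, p = 0.00824). The 2 subunits had nearly the same ratio. Tyms, thymidylate synthase, averaged 9.51 in WT and 13.9 in libraries labelled Fst-KO in the authors' deposited table (ratio 1.46, p = 0.0309). Tk1, the salvage thymidine kinase, stood at 18.5 in WT against 23.6, per the authors' deposited table (ratio 1.27, p = 0.0192). The new-synthesis enzyme for thymidylate had the higher ratio of these 2.

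The genes that restore chromatin behind the fork were likewise all higher with a p under 0.05, with a median of 1.40 over 4 genes. For Chaf1a, the large subunit of the histone chaperone CAF-1, the authors' deposited table gives 12.9 in WT and 17.3 with the Fst-KO label (ratio 1.34, p = 0.00640). Chaf1b, its middle subunit, averaged 5.47 in WT and 8.99 in libraries labelled Fst-KO in the authors' deposited table (ratio 1.64, p = 0.01005). The smaller partner had the larger ratio. Uhrf1, which reads hemimethylated DNA, stood at 35.9 in WT against 49.4, per the authors' deposited table (ratio 1.38, p = 0.00544). For Dnmt1, the maintenance methyltransferase that Uhrf1 recruits, the authors' deposited table gives 35.3 in WT and 49.9 with the Fst-KO label (ratio 1.41, p = 0.0397). Uhrf1 had the lowest p and Chaf1a the next lowest of all 46 members. Exons of Chaf1a share 52.5% of their bases with Ubxn6 on the other strand, which had a ratio of 1.27 and a p of 0.0278 in the authors' deposited table. Chaf1b has no such overlap with another gene of the deposited table.

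The regulators of S-phase entry had the lowest median, 1.24 over 4 genes, and held the sole member with a ratio below 1. Ccne1, a cyclin E that activates Cdk2, averaged 10.3 in WT and 13.1 in libraries labelled Fst-KO in the authors' deposited table (ratio 1.27, p = 0.0310). Ccne2, the other cyclin E, stood at 12.5 in WT against 16.2, per the authors' deposited table (ratio 1.30, p = 0.0109). Both cyclin E genes were thus higher. For E2f1, an activator E2F, the authors' deposited table gives 14.99 in WT and 18.02 with the Fst-KO label (ratio 1.202, p = 0.0650). E2f2, another activator E2F, averaged 37.2 in WT and 32.4 in libraries labelled Fst-KO in the authors' deposited table (ratio 0.873, p = 0.201). E2f1 lay within the quartiles of all genes, and E2f2 had a lower mean with no such p, at 0.769 relative to the all-gene median. That placed E2f2 at percentile 7.92 of all ratios.

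The 2 checkpoint genes were both higher with a p under 0.05. Chek1, the kinase that answers stalled forks, stood at 7.68 in WT against 10.7, per the authors' deposited table (ratio 1.39, p = 0.00918). For Clspn (claspin), the adaptor through which it is activated, the authors' deposited table gives 10.9 in WT and 13.8 with the Fst-KO label (ratio 1.27, p = 0.0406). Across the 46 members, 8 had a ratio of at least 1.5, 35 lay from 1.2 to below 1.5, 2 from 1 to below 1.2 and 1 below 1. By p, 27 members lay between 0.01 and 0.05, 4 between 0.05 and 0.1 (Rfc3, Pold1, E2f1 and Prim1) and 9 above that.

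The members' promoters were also searched for the E2F-type element that S-phase genes are known for. The search describes the reference sequence, and the share of members with a match does not depend on the ratios in these libraries. The letters searched were TTTCCCGC, TTTCGCGC, TTTGCCGC and TTTGGCGC on both strands, in RefSeq windows of 300 bases (build GRCm38.p6) from 250 before to 50 after each gene's start. Of the 46 members, 39 matched a window by symbol, and 17 of these 39 (43.6%) held at least 1 match in any window. The share was 4.46% of the 10421 genes of the expression table that have a window and 2.605% of all 27025 genes with one. Sites of the loading and helicase genes are shown because these encode the parts assembled at origins (Mcm2 held no match and Mcm4 had no window), with E2f2 added as the member whose ratio went the other way. Each is printed 5′ to 3′ on the gene's own strand, with the match in capitals. A match on the opposite strand reads as its reverse complement, for example GCGGGAAA for TTTCCCGC.
Cdc6 (chr11:98908004-98908029, plus strand): cggtggagaGCGGGAAAtcgcctggg
Cdt1 (chr8:122568038-122568063, plus strand): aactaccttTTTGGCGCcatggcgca
E2f2 (chr4:136172304-136172323, plus strand): ggcatatagTTTGGCGCtaa
Mcm3 (chr1:20820277-20820302, minus strand): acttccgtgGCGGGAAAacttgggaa
Mcm3 (chr1:20820263-20820283, minus strand): ttgggaagtTTTGGCGCcaag
Mcm5 (chr8:75109347-75109376, plus strand): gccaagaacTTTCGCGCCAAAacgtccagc
Mcm6 (chr1:128359795-128359824, minus strand): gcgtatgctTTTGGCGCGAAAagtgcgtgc
Mcm6 (chr1:128359736-128359761, minus strand): ttggacgggTTTGGCGCgaagtagct
Mcm7 (chr5:138172032-138172057, minus strand): tttcgaaccGCGGGAAAcagggtgtc
Mcm7 (chr5:138171851-138171876, minus strand): gtgacgacgTTTCGCGCcaatttcgg
Orc1 (chr4:108579418-108579443, plus strand): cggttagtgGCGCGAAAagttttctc

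In Mcm5 and in the first Mcm6 site 2 matches on opposite strands overlap in a stretch of 12 bases, and the Mcm5 stretch is the exact reverse complement of the Mcm6 one. For Mcm6, which held 3 matches, and for Uhrf1, the member with the lowest p, the 250 bases before the start are given whole. The Mcm6 start is the RefSeq one, which lies upstream of the start in the GENCODE M21 gene model, and the Uhrf1 window belongs to the second of its 2 RefSeq starts. The window of the first Uhrf1 start held 0 matches.
Mcm6 (chr1:128359706-128359955, minus strand): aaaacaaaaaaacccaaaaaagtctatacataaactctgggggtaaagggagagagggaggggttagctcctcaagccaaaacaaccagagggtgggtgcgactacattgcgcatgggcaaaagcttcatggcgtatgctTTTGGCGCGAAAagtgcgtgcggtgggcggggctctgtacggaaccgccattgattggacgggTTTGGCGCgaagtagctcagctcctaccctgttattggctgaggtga
Uhrf1 (chr17:56304063-56304312, plus strand): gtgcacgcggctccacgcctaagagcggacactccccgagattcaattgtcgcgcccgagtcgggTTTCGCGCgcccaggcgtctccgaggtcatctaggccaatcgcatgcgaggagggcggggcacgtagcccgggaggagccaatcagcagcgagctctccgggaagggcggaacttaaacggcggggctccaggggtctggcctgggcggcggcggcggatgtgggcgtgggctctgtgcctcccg

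The 17 members with a match were Orc1, Cdc6, Cdt1, Mcm3, Mcm5, Mcm6, Mcm7, Mcm8, Gins3, Pola1, Pold1, Rfc3, Lig1, Uhrf1, Dnmt1, Clspn and E2f2, with 24 matches in all, each of an overlapping pair counted. Of these matches, 13 lay before the start and 11 at or after it. The members with a match had a median ratio of 1.38 and the 22 without one 1.30, a description with no test. E2f2, with a match at positions 40 to 47 after the start, had the sole ratio below 1. Of the 4 members with the lowest p, Uhrf1 and Cdt1 held a match and Chaf1a and Rrm2 did not, and Rrm1 held none. No match means only that these letters are not in that window.

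**Figure D3:**
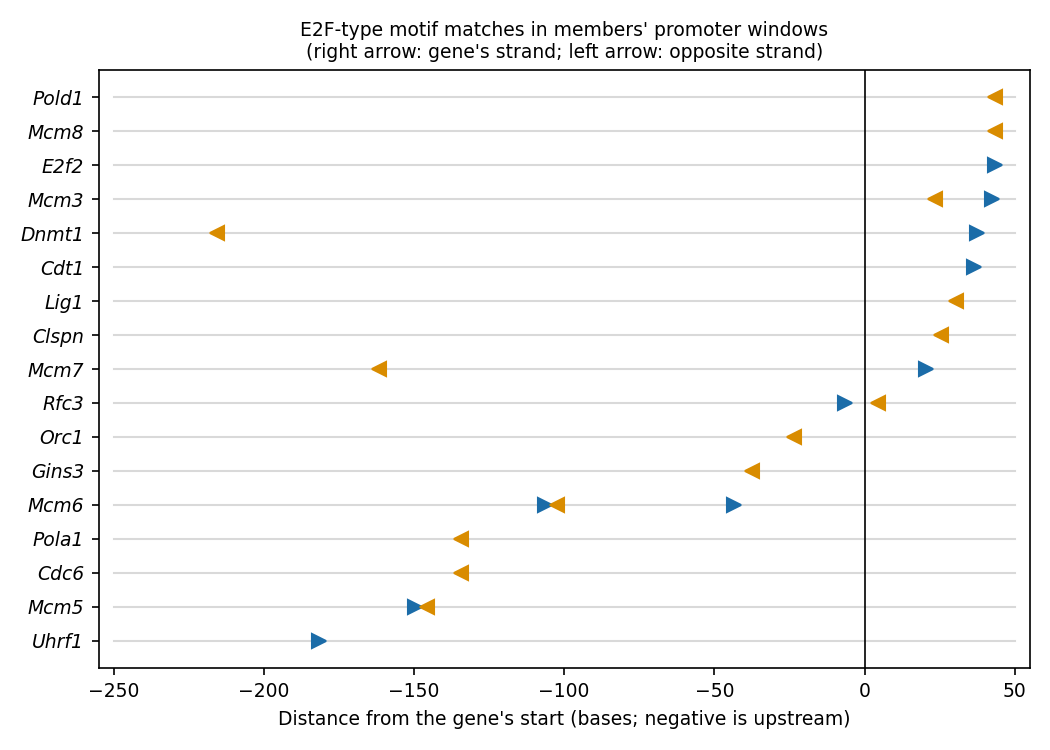
Position of each of the 24 E2F-type matches in the windows of the 17 members that hold one (horizontal axis, bases from the gene's RefSeq start, negative is upstream; right arrows are matches on the gene's strand, left arrows on the opposite strand). For genes with more than 1 start the matches of all windows are drawn on 1 line; 15 of the 24 matches lie between 100 bases before and 50 after the start.

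Replication genes outside the set also had higher means in the libraries labelled Fst-KO. A list of 59 further genes of the pathway was also drawn up with earlier results of these data known. All 59 had a ratio above 1, against 81.0% of all genes, and 51 exceeded the all-gene median. Their median was 1.30, and 32 were higher and 0 lower at a p under 0.05, against 13.4% and 2.17% of all genes, with an FDR under 0.05 for 0. Recql4, a helicase needed for origin firing, averaged 2.28 in WT and 3.94 in libraries labelled Fst-KO in the authors' deposited table (ratio 1.73, p = 0.00525). Rfc2, a clamp loader subunit, stood at 13.8 in WT against 20.4, per the authors' deposited table (ratio 1.47, p = 0.00823). For Atrip, the partner of the checkpoint kinase ATR, the authors' deposited table gives 1.13 in WT and 2.30 with the Fst-KO label (ratio 2.03, p = 0.00833). The ratio of Atrip rests on means near the lower edge of the table. Tipin, of the fork protection complex, averaged 10.7 in WT and 14.8 in libraries labelled Fst-KO in the authors' deposited table (ratio 1.39, p = 0.00906). Ticrr, for the firing factor treslin, stood at 9.71 in WT against 13.0, per the authors' deposited table (ratio 1.34, p = 0.00911). For Exo1, an exonuclease of mismatch repair and end resection, the authors' deposited table gives 6.82 in WT and 9.72 with the Fst-KO label (ratio 1.42, p = 0.00917). These 6 had the lowest p of that list. E2F-type matches stood in 11 of the list's 48 genes with a window (22.9%), against 43.6% for the members and 4.46% of table genes.

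Regulators of the G1/S step lay nearer to the shift of all genes. Of 30 listed, 29 were in the table, with a median ratio of 1.18 or 1.04 relative to the all-gene median, and 10 were higher and 0 lower at a p under 0.05, against 13.4% and 2.17% of all genes. Cdk6, a cyclin D-dependent kinase, averaged 23.97 in WT and 31.7 in libraries labelled Fst-KO in the authors' deposited table (ratio 1.32, p = 0.00555). Cdk4, its close relative, stood at 104 in WT against 137, per the authors' deposited table (ratio 1.32, p = 0.0194). For Cdk2, the partner of cyclins E and A, the authors' deposited table gives 32.0 in WT and 40.3 with the Fst-KO label (ratio 1.26, p = 0.0109). All 3 kinase genes were higher. Ccna2, the S-phase cyclin A, averaged 65.8 in WT and 80.6 in libraries labelled Fst-KO in the authors' deposited table (ratio 1.23, p = 0.0188). Cdc25a, the phosphatase that activates Cdk2, stood at 26.1 in WT against 32.2, per the authors' deposited table (ratio 1.23, p = 0.0214). For E2f7, a repressor E2F, the authors' deposited table gives 11.8 in WT and 14.8 with the Fst-KO label (ratio 1.25, p = 0.0166). The retinoblastoma gene Rb1, picked with its values in view, had a ratio of 0.869 and a p of 0.254 in the authors' deposited table. E2F-type matches stood in 8 of the 22 listed genes with a window (36.4%), against 43.6% for the members and 4.46% of table genes. Whether a match goes with a higher ratio was not tested.

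Inhibitors of cyclin-dependent kinases and related arrest genes had ratios around 1. The 9 of 10 that were in the table had a median of 1.08, under the all-gene median, and 0 had a p under 0.05 in either direction, against 15.6% of all genes. Cdkn1c, for the inhibitor p57, averaged 1080.2 in WT and 1041 in libraries labelled Fst-KO in the authors' deposited table (ratio 0.964, p = 0.840). Cdkn1a, for the inhibitor p21, stood at 384 in WT against 359, per the authors' deposited table (ratio 0.934, p = 0.601). The highest ratio of the list was that of Cdkn2b at 1.56 with a p of 0.0528 in the authors' deposited table, and that gene was picked with its values in view.

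Genes of G2 and mitosis, which act after replication, had nearly the same median as the members. All 26 listed were in the table, with a median of 1.32, and 19 were higher and 1 lower at a p under 0.05, against 13.4% and 2.17% of all genes. For Prc1, which bundles spindle microtubules, the authors' deposited table gives 40.7 in WT and 54.8 with the Fst-KO label (ratio 1.34, p = 0.00520). Cdk1, the mitotic kinase, averaged 23.3 in WT and 32.3 in libraries labelled Fst-KO in the authors' deposited table (ratio 1.38, p = 0.00609). Ttk, the spindle checkpoint kinase Mps1, stood at 5.01 in WT against 8.06, per the authors' deposited table (ratio 1.61, p = 0.00825). Their ratios ran from 1.34 to 1.61. For Aurkb, the kinase of the chromosomal passenger complex, the authors' deposited table gives 21.1 in WT and 26.7 with the Fst-KO label (ratio 1.27, p = 0.0103). Cdca8, for borealin of the same complex, averaged 11.8 in WT and 16.5 in libraries labelled Fst-KO in the authors' deposited table (ratio 1.40, p = 0.0124). E2F-type matches stood in 2 of 22 genes with a window (9.09%), as against 17 of 39 members, 8 of 22 G1/S control genes and 1 of 9 kinase inhibitors (11.1%). Of all table genes with a window, 4.46% held a match. The differences between the lists were not tested.

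A single gene of that list went the other way. Ube2c, the ubiquitin-conjugating enzyme of the anaphase-promoting complex, stood at 676 in WT against 429.7, per the authors' deposited table (ratio 0.635, p = 0.00822). Its exons share 22.8% of their bases with Tnnc2, the fast skeletal troponin C gene, which runs on the opposite strand. Tnnc2 had means of 146 and 109 in the authors' deposited table (ratio 0.742, p = 0.121), and whether reads of Tnnc2 were counted for Ube2c was not tested. Only overlaps with genes of the deposited table were searched. Among the members, 10 share exon bases with such a gene on the opposite strand, namely Orc2, Orc6, Mcm7, Gins2, Rfc4, Rfc5, Fen1, Tk1, Chaf1a and Ccne2. The shared part ran from 1.45% of the exon bases of Mcm7 (with Cops6) to 78.8% of those of Fen1 (with Gm10143). Without those 10, 26 of 36 members were higher at a p under 0.05, against 13.4% of all genes, and the median ratio was 1.37.

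**Figure D4:**
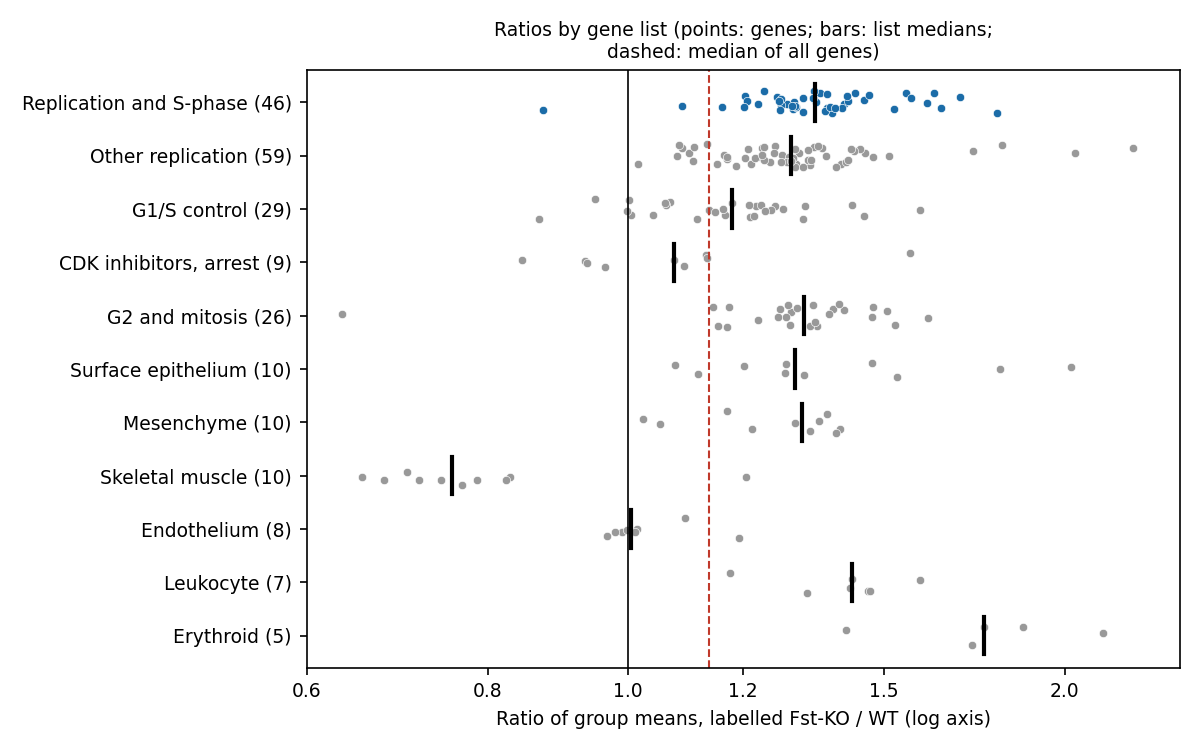
Ratio of group means (log axis) for the genes of each list, with a black bar at the list's median and a dashed line at the all-gene median; the number of genes in the table is in brackets. Both replication lists and the mitosis list centre near 1.3, as do the mesenchyme and surface epithelium markers, and leukocyte and erythroid markers centre higher. The kinase inhibitors centre left of the dashed line, and skeletal muscle markers lie mostly below 1.

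Markers of the cell types in the tissue were also unequal between the groups. The 10 skeletal muscle markers had a median ratio of 0.756, with 4 lower and 0 higher at a p under 0.05, against 2.17% and 13.4% of all genes, and their summed means were 15607 in WT and 11427 in the libraries labelled Fst-KO. For Acta1, skeletal actin, the authors' deposited table gives 4921 in WT and 3654 with the Fst-KO label (ratio 0.743, p = 0.0990). Myh8, perinatal myosin, averaged 4466 in WT and 2927 in libraries labelled Fst-KO in the authors' deposited table (ratio 0.655, p = 0.0293). Mesenchyme markers had a median of 1.32 over 10 genes and summed means of 4749 and 6349. All 10 had a ratio above 1, against 81.0% of all genes, and 8 exceeded the all-gene median. At a p under 0.05, 5 were higher, against 13.4% of all genes. Col1a1, a collagen I chain, stood at 1182 in WT against 1653, per the authors' deposited table (ratio 1.40, p = 0.0191). For Col3a1, collagen III, the authors' deposited table gives 1101 in WT and 1510.2 with the Fst-KO label (ratio 1.37, p = 0.0346). Surface epithelium markers had a median of 1.30 over 10 genes and sums of 9337 and 12963. All 10 had a ratio above 1, against the same 81.0%, and 8 exceeded the all-gene median. At a p under 0.05, 3 were higher, against the same 13.4%. Krt5, a basal keratin, averaged 1538 in WT and 2358 in libraries labelled Fst-KO in the authors' deposited table (ratio 1.53, p = 0.0235). Krt13, a keratin of oral mucosa, stood at 2737 in WT against 3616, per the authors' deposited table (ratio 1.32, p = 0.194).

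Erythroid and leukocyte markers had ratios above the all-gene median, and endothelial markers did not on median. The 5 of 7 erythroid markers in the table had a median ratio of 1.76 with sums of 368 and 670.3. For Hba-a1, an alpha globin, the authors' deposited table gives 114 in WT and 213 with the Fst-KO label (ratio 1.87, p = 0.0113). Hbb-bs, a beta globin, averaged 126 in WT and 217 in libraries labelled Fst-KO in the authors' deposited table (ratio 1.73, p = 0.0244). The 7 of 8 leukocyte markers had a median of 1.43 with sums of 36.9 and 51.7, among them Csf1r at 1.42 and C1qb at 1.33 in the authors' deposited table. The 8 endothelial markers had a median of 1.00 with sums of 244 and 243, among them Cdh5 at 0.967 and Pecam1 at 0.990 in the authors' deposited table. No gene of the authors' deposited table had a group mean under 0.459, so that none of the markers in it was at 0 carries no information. The part of cell composition in the higher ratios of the replication genes was not tested.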

How the data were processed

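Bulk RNA-seq of 6 libraries was compared as 3 labelled Fst-KO against 3 WT. Per the submitters' processing notes, BWA 0.7.12 and Partek were used with mm10, and the series' design text names Partek's gene-specific analysis (GSA) as the test. Annotation, normalisation and counting were not given in the sources used here. Per the file headers, the deposited group means are least-squares means, taken here as those of a normalised signal. The ratio is the quotient of these means (equal to within 1e-06 of its size for all 15648 genes), and the p-values and FDR are the authors'. The FDR equalled a Benjamini-Hochberg adjustment over all 15648 genes. The deposited fold change, taken here as a signed score, was not used, and the column headed as totals equalled 3 times the sum of both means for every gene. Depth is therefore unknown and no interval or exact test could be given.

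The deposited FDR under 0.05 was the test, since the table holds 1 mean per group; an unadjusted p under 0.05 is given as a count, to be read against the share of all genes. Group sums differed by 6.42%. Members and lists were chosen with earlier results of these data known. Named were all members, Fst, up to 6 genes of each pathway list by lowest p under 0.05 (the 2 with the largest means where fewer than 2 had one), the 2 marker genes with the largest means and all sex-linked genes. Promoters considered were those of the 4 members with the lowest p and the 2 with the largest means, and those of Mcm6 and Uhrf1 are printed; short sites were chosen after the search. Exon overlaps used GENCODE M21 on GRCm38, the assembly of mm10, and covered only genes of the deposited table. Computation used Python 3.11.15, pandas 2.3.3 and numpy 2.4.6, tested on simulated data. Alternatives were pseudocounts, rescaling, means for medians, an abundance filter, other thresholds and fewer motif forms.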

Additional observations from a re-analysis of the deposited data

How the results depend on the processing

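Median log2 ratios are given in the order replication and S-phase genes, other replication genes, G2 and mitosis genes, G1/S control genes and kinase inhibitors, and as deposited they were 0.43, 0.37, 0.40, 0.24 and 0.11. Adding a pseudocount of 1 to each mean gave 0.39, 0.34, 0.38, 0.21 and 0.10, and adding 10 gave 0.22, 0.19, 0.26, 0.15 and 0.091. Relative to the all-gene median they were 0.24, 0.19, 0.22, 0.053 and -0.078, so the kinase inhibitors changed sign there and the other 4 lists did not. With means of the log2 ratios they were 0.44, 0.39, 0.37, 0.23 and 0.083, and over genes whose mean reached the all-gene median of 16.1 they were 0.38, 0.33, 0.37, 0.21 and 0.11. Relative to the ratio of the group sums, an alternative chosen after seeing the data, they were 0.34, 0.28, 0.31, 0.15 and 0.016. The members' median was 0.45 without the 10 that share exon bases with another gene and 0.43 without Pola1, both also chosen after seeing the data. Members higher at an unadjusted p under 0.05 numbered 33, against 6 at a p under 0.01 and 14 among the 18 members that abundant, where 17 had a ratio above 1 against 45 of all 46; fewer members are counted there. Relative to the ratio of the group sums 45 lay above. No member passed when the FDR was taken over abundant genes alone (smallest value 0.288) or at an FDR under 0.25, while 33 had an unadjusted p under 0.05 by the authors' GSA test; 0 were lower. With 2 motif forms (TTTCCCGC and TTTGGCGC) 33.3% of members' promoters held a match, against 3.23% of table genes. No paired analysis was possible because the file holds 1 mean per group, and for the same reason leaving out each replicate was not run. Depth limits could not be assessed.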
